A study of Mus musculus with 40 samples.

Results

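Organoids of mouse bladder urothelium whose label is Kmt2c and Kmt2d double knockout (dKO) were compared with wild-type (WT) organoids, both kept in the solvent DMSO for 4 days. The comparison was picked by label, as the 2 polyA RNA-seq libraries labelled dKO DMSO and the 2 labelled WT DMSO, which are 4 of the 40 samples of the series. All genes were taken, and 16921 of the 53465 gene identifiers in the count table had enough reads to be tested. The series addresses how chromatin and RNA differ when Kmt2c and Kmt2d are lost from urothelium. Besides the 4 libraries above, 2 labelled dKO and 2 WT libraries had been given MI-503 at 1 µM for 4 days, an inhibitor of the contact between menin and the methyltransferase KMT2A, and their values stand here only beside those in DMSO. The remaining 32 samples were not analysed here. Every group grew in 1 medium, which held EGF, conditioned media with Noggin and R-spondin, the TGF-beta receptor inhibitor A83-01 and the kinase inhibitor Y-27632, so BMP, WNT, EGF and TGF-beta pathway genes were measured with those additions present. The labels do not say which exons were removed, how the deletion was made, how many lines carry it or whether replicates are separate cultures, and the p-values below therefore measure only the spread between these libraries, which may be technical.

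KMT2C and KMT2D are large methyltransferases that add the first methyl group to lysine 4 of histone H3 at enhancers, in complexes that also hold the demethylase KDM6A, and both genes are often mutated in human bladder cancer. The urothelium is a layered epithelium in which basal cells, marked by keratins 5 and 14 and the transcription factor p63, rest on a basement membrane through hemidesmosomes, while umbrella cells at the surface make uroplakins and tight junctions. Cultured urothelial cells without their stroma can keep basal features and can take on features of squamous epithelium.

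RNA of the targeted genes was measured first. Kmt2c had 55.2 and 52.3 CPM (counts scaled to a common library size with TMM factors) in the libraries labelled dKO, against 110.2 and 111 CPM in WT. The groups did not overlap, and the gene fell (log2 fold change -1.04, SE 0.0591, adjusted p = 2.60e-09 by edgeR's quasi-likelihood test with Benjamini-Hochberg adjustment). Kmt2d had 111 and 133 CPM in the libraries labelled dKO, against 95.4 and 86.5 CPM in WT. Its RNA was higher, not lower, in both libraries labelled dKO (log2 fold change 0.43, adjusted p = 0.00166). Counts over a whole gene do not show the loss of single exons, so for Kmt2d the label is taken here from the submitters. The series also holds Kmt2d ChIP samples of both genotypes, which were not analysed here. The group is called labelled dKO throughout.

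The 4 libraries held 63312058 and 67756744 counts in labelled dKO and 68571176 and 67842984 counts in WT. Across all 8 libraries, TMM factors ran from 0.892 to 1.06, with the lowest pair in WT DMSO. The first principal component, with 51.3% of the variance, set labelled dKO apart from WT, and the second, with 42.6%, set MI-503 apart from DMSO. The WT DMSO pair stood apart from the other 6 libraries in RNA of chaperone genes and of p53 target genes. Values of the genotypes in MI-503 therefore stand beside those results, and leaving out both WT DMSO libraries would leave no comparison. The biological coefficient of variation was 5.14%, and the smallest p that an exact permutation of 2 against 2 libraries allows is 0.333, so each test below borrows the spread of all genes through edgeR. Defining markers of urothelium were present in both groups, with a summed level of 16286 and 18125 CPM in labelled dKO and 8638 and 7927 CPM in WT. Most of that sum came from Krt5 and Krt14, which other layered epithelia also make. The uroplakin gene Upk2 had 3 and 5 counts in labelled dKO and 8 and 9 in WT, too few to be tested. Of 22 immune markers 10 were at 0 counts in all 4 libraries, as were 5 of 16 endothelial, 6 of 18 fibroblast, 2 of 18 muscle, 3 of 12 glial, 5 of 17 intestinal and 11 of 18 prostate and seminal vesicle markers, and none of 8 neuron markers. Of the 17 intestinal markers 8 were tested, of which 4 rose, 2 fell and 2 did not pass (median log2 fold change 2.21), with a summed level of 29.9 and 29.2 CPM in labelled dKO and 19.2 and 18.8 CPM in WT. Those that rose were Lgr5, a stem cell receptor, with 901 counts in labelled dKO and 1 in WT, the homeobox gene Cdx2 with 1.64 and 1.29 CPM in labelled dKO and 0.163 and 0.0661 CPM in WT, Olfm4 at under 1 CPM, and Krt20, which umbrella cells also make. Gpa33 and Fabp2 fell. Muscle markers summed to 82.8 and 103 CPM in labelled dKO and 65.6 and 61.2 CPM in WT, most of it from Smtn.

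In labelled dKO cells, 5017 genes rose and 6053 fell against WT, while 5851 did not pass. These are 29.6%, 35.8% and 34.6% of the genes tested, so that 65.4% of all genes passed in some direction, and the libraries of the groups did not overlap for 81.1% of genes. Changes of at least 2-fold were fewer, with 1773 genes risen (10.5%) and 2048 fallen (12.1%). The log2 fold change of all genes had a median of -0.05, with 25% of genes below -0.55 and 25% above 0.48. Of the genes called 45.3% were higher. With library sizes alone in place of TMM scaling 6899 genes rose and 4288 fell, or 61.7% higher, and the median of all genes moved up by 0.23. Lists below are therefore read against the median of all genes, which moves with them. The members of each list are given with the number tested, the others having too few reads.

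Direction varied with the level of a gene. Of 399 genes with at least 500 CPM in the higher group, 26.3% rose and 64.9% fell, and of 2481 genes between 100 and 500 CPM, 23.7% rose and 62.9% fell. Of 2488 genes between 5 and 20 CPM, 44.8% rose and 31.8% fell. CPM values are not scaled by gene length, so these classes rank genes by reads and not by molecules. Lists below were not matched by level. Lists with high summed levels, such as the ER, p53 target and YAP lists, are to be read beside these shares too. Of 12768 protein-coding genes 33.7% rose and 42.0% fell, against 25.3% and 22.4% of 795 long noncoding RNA genes.

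Genes with a large rise included those of secreted proteins, adhesion proteins and receptors. Among genes with at least 20 CPM in labelled dKO the largest rise was that of Mill1, an MHC class I-like gene, with 67.3 and 63.6 CPM in labelled dKO, against 0.293 and 0.165 CPM in WT (log2 fold change 8.14, SE 0.126, adjusted p = 1.11e-14). Myh10 had 62.1 and 63.5 CPM in labelled dKO, against 0.456 and 0.430 CPM in WT (log2 fold change 7.14). Neither gene overlapped between the groups. Pi15 (ENSMUSG00000067780, chromosome 1, 17601901 to 17630939 of GRCm38.p6), which encodes a secreted peptidase inhibitor of the CAP family, had 426 and 399 CPM in labelled dKO, against 2.85 and 3.27 CPM in WT. The groups lay far apart, and the gene rose (log2 fold change 7.07, SE 0.0761, adjusted p = 1.42e-15). Pxdn, the peroxidase that cross-links collagen IV, had 37.8 and 36.8 CPM in labelled dKO, against 0.928 and 0.727 CPM in WT, without overlap (log2 fold change 5.49, SE 0.0992, adjusted p = 3.83e-14). Slitrk6, a transmembrane protein of neurons and the inner ear, had 201 and 187 CPM in labelled dKO, against 10.2 and 9.99 CPM in WT, again without overlap (log2 fold change 4.27, SE 0.0675, adjusted p = 1.22e-14). The potassium channel gene Kcnq5 rose with 30.04 and 30.01 CPM in labelled dKO, against 1.64 and 1.57 CPM in WT (log2 fold change 4.22). The atypical chemokine receptor Ackr3, a scavenger of CXCL12, had 39.5 and 39.1 CPM in labelled dKO, against 2.20 and 2.41 CPM in WT (log2 fold change 4.09). Further large rises were those of the noncoding gene Ptgs2os2 (log2 fold change 4.23), the adhesion receptor gene Adgrl3 (3.98), the G protein subunit gene Gnai1 (3.75), the RNA-binding protein gene Rbms3 (3.38) and the adaptor gene Sorbs2 (3.35). Ackr3 and Slitrk6 rose by 1.07 and 1.60 on the log2 scale between the genotypes in MI-503, whereas Kcnq5 rose by 4.76 there.

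Genes with at least 200 CPM in labelled dKO that rose most also included, besides Pi15, surface and secreted proteins. Bcam, the basal cell adhesion molecule that binds laminin alpha 5, had 236 and 285 CPM in labelled dKO, against 35.7 and 29.9 CPM in WT. Both libraries labelled dKO exceeded both WT libraries (log2 fold change 2.99, SE 0.118, adjusted p = 6.41e-11). Anxa8, an annexin, rose by 2.60 on the log2 scale, the glutathione peroxidase Gpx2 by 2.37, the EGF receptor ligand Epgn by 2.26, the noncoding gene Lncenc1 by 2.84 and the atypical cadherin Cdh13 by 2.22. The architectural chromatin protein gene Hmga1 had 588 and 708 CPM in labelled dKO, against 141 and 133 CPM in WT (log2 fold change 2.24). In MI-503 the genotypes did not differ past the threshold for Hmga1 (log2 fold change -0.04, adjusted p = 0.694), while Bcam, Anxa8, Gpx2, Epgn and Cdh13 rose there too, by 0.96 for Gpx2 to 1.84 for Epgn.

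Among genes with at least 20 CPM in WT the largest fall was that of the kinase gene Pak3, which had 1 count in the libraries labelled dKO together and 7868 in WT, a ratio of 8861 in favour of WT with a 95% counting interval of 1590 to 350030. Derl3, a factor of ER-associated degradation, had 0.819 and 0.547 CPM in labelled dKO, against 212 and 218 CPM in WT (log2 fold change -8.31, SE 0.102, adjusted p = 4.12e-15). Both genes were almost without reads in labelled dKO. Sparc (ENSMUSG00000018593, chromosome 11, 55394159 to 55420080), a collagen-binding matrix protein, had 0.591 and 0.757 CPM in labelled dKO, against 122 and 111 CPM in WT. Its reads were near the low end in both libraries labelled dKO and abundant in both WT libraries (log2 fold change -7.42, SE 0.0999, adjusted p = 5.20e-15). Arhgdib, an inhibitor of small GTPases known mostly from blood cells, had 0.697 and 0.701 CPM in labelled dKO, against 119 and 114 CPM in WT (log2 fold change -7.38, SE 0.0936, adjusted p = 4.12e-15). Col8a1, a short-chain collagen, had 0.591 and 0.364 CPM in labelled dKO, against 60.4 and 61.4 CPM in WT (log2 fold change -7.00). In none of these genes did a library labelled dKO come near a WT library. Pycard, the adaptor of inflammasomes, fell to 0.440 and 0.575 CPM in labelled dKO, against 54.9 and 47.9 CPM in WT (log2 fold change -6.65). The desmosomal cadherin Dsc2 fell to 0.334 and 0.378 CPM in labelled dKO, against 27.5 and 24.8 CPM in WT (log2 fold change -6.19). Pdpn, the mucin-like podoplanin, which is otherwise counted as a basal marker, fell to 0.743 and 0.743 CPM in labelled dKO, against 51.5 and 47.3 CPM in WT (log2 fold change -6.05).

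**Figure D1:**
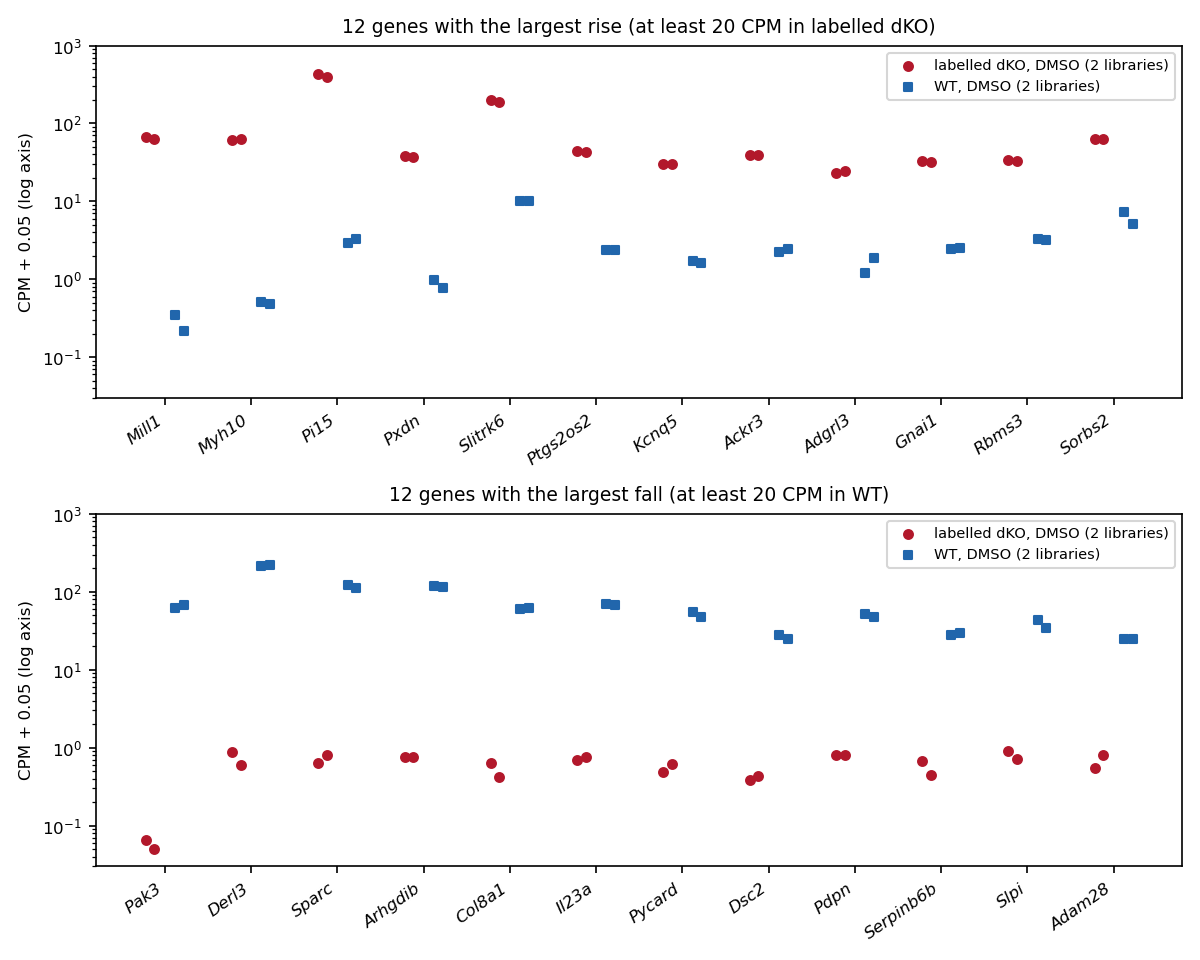
CPM plus a small constant on a log axis for the 12 genes with the largest rise and the 12 with the largest fall among genes with at least 20 CPM in the higher group, 2 libraries per group, labelled dKO in red left of WT in blue. The libraries of a group lie close together and the groups do not overlap for any of the 24 genes.

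Secreted inhibitors and proteases were among the other genes with large falls. Slpi, a leukocyte peptidase inhibitor of mucosal surfaces, had 0.849 and 0.673 CPM in labelled dKO, against 43.02 and 34.6 CPM in WT, and both libraries labelled dKO were below both WT libraries (log2 fold change -5.67, SE 0.144, adjusted p = 8.64e-13). The lysosomal cathepsin Ctsh had 2.88 and 2.55 CPM in labelled dKO, against 100.2 and 100.1 CPM in WT (log2 fold change -5.21). Serpinb6b, a serpin whose near copies may share its reads, fell by 5.83 on the log2 scale, and the metalloprotease gene Adam28 by 5.32. The calcitonin-related peptide gene Calcb fell to 37.5 and 41.3 CPM in labelled dKO, against 662 and 654 CPM in WT (log2 fold change -4.06). Plagl1, an imprinted zinc finger gene, averaged 21.01 CPM in labelled dKO against 410.0 CPM in WT (log2 fold change -4.29). The genotype difference was also present in MI-503 for Sparc (log2 fold change -5.71), Arhgdib (-6.77), Slpi (-6.07) and Pycard (-7.33).

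RefSeq promoter windows, which run from 250 bases before to 50 after a gene's start, were matched by symbol for 10884 of the genes tested. Windows poor in CpG, with an observed over expected ratio under 0.4, made up 38.0% of the 229 genes that rose by at least 8-fold and 49.4% of the 318 that fell by at least 8-fold, beside 16.7% of all tested genes with a window and 50.9% of all 27018 windows. CpG-poor windows were also more frequent among tested genes under 5 CPM in both groups (37.4% of 2863) than among genes with at least 5 CPM in either (9.30% of 8021). Among the genes with at least 5 CPM, the shares were 33.3% of 45 genes risen by at least 8-fold and 37.4% of 99 fallen by at least 8-fold. Groups here were made from the fold change itself, so the shares are a description with no test. Stretches of 150 bases that end just before the start of 5 genes with large changes are printed 5′ to 3′ on the gene's strand, from RefSeq on GRCm38.p6, to show a CpG-poor and a CpG-richer window side by side. These examples do not stand for a direction. With at least 5 CPM and 8-fold change, CpG-poor windows were a minority of risen and of fallen genes (33.3% and 37.4%). Arhgdib had 3 windows listed, of which the most upstream was used. Capitals mark CG pairs. Sparc (minus strand, chr11:55420081-55420230), Arhgdib (minus strand, chr6:136941900-136942049), Slpi (minus strand, chr2:164356508-164356657) and Pycard (minus strand, chr7:127993868-127994017) fell, and Myh10 (plus strand, chr11:68691765-68691914), a nonmuscle myosin gene, rose.
Sparc: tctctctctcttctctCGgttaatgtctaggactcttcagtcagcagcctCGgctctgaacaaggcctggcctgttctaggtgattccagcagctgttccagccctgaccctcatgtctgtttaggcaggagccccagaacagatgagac
Arhgdib: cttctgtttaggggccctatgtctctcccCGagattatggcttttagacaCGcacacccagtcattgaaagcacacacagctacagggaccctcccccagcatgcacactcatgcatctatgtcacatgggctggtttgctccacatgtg
Slpi: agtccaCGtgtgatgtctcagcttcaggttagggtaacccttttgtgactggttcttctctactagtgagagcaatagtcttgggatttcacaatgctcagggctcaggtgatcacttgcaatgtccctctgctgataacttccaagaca
Pycard: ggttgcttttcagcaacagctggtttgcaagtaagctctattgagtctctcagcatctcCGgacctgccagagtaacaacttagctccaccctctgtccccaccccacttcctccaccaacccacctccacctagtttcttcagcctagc
Myh10: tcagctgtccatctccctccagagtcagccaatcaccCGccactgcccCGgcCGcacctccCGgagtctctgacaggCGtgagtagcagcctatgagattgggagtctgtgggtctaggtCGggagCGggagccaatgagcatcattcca
The stretch of Sparc held 2 CG pairs, as did that of Arhgdib, and those of Slpi and Pycard held 1, against 7 in the stretch of Myh10. The observed over expected ratio of the whole window was 0.174 for Sparc, 0.268 for Arhgdib, 0.143 for Slpi, 0.181 for Pycard and 0.612 for Myh10.

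Basal epithelial genes were mostly higher in labelled dKO cells. Of 22 basal genes 21 were tested, of which 15 rose, 3 fell and 3 did not pass, with a median log2 fold change of 1.14 beside -0.05 over all genes tested, of which 29.6% rose and 35.8% fell. Krt5, the main type II keratin of basal cells, had 9063 and 10095 CPM in labelled dKO, against 4130.4 and 3817 CPM in WT (log2 fold change 1.27, SE 0.0719, adjusted p = 2.52e-09). Its partner Krt14 had 4451 and 5242 CPM in labelled dKO, against 2081 and 1787 CPM in WT (log2 fold change 1.33). For both keratins each library labelled dKO was above each WT library. The transcription factor Sox15 rose with 59.5 and 66.96 CPM in labelled dKO, against 17.5 and 14.5 CPM in WT (log2 fold change 1.98), as did the desmosomal cadherins Dsc3 (1.89) and Dsg3 (1.48) and the hyaluronan receptor Cd44 (0.69). Besides Pdpn, the members that fell were the EGF receptor gene Egfr (140.5 CPM in labelled dKO against 246 CPM in WT, log2 fold change -0.81) and the nerve growth factor receptor gene Ngfr (5.24 CPM in labelled dKO against 9.82 CPM in WT, -0.91). Krt17 (-0.13) and the P-cadherin gene Cdh3 (-0.09) did not pass. In MI-503 13 of the 21 rose and 4 fell, with a median of 0.48, where 26.6% of all genes rose and 28.5% fell.

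Keratin genes moved both ways. Of 54 keratin genes 29 were tested, of which 14 rose, 8 fell and 7 did not pass (median 0.66). Krt6a (1959.7 CPM in labelled dKO against 810.1 CPM in WT, log2 fold change 1.27), Krt16 (262 CPM in labelled dKO against 113 CPM in WT, 1.22) and Krt13 (577 CPM in labelled dKO against 244 CPM in WT, 1.24), keratins of hyperproliferative and of squamous mucosal epithelium, rose. The reads of Krt6a may be shared in part with its near copy Krt6b, so the split between them is uncertain. Krt20, a keratin of umbrella cells, had 11.3 and 10.2 CPM in labelled dKO, against 0.260 and 0.380 CPM in WT, a rise at a low level (log2 fold change 5.07, SE 0.166, adjusted p = 1.03e-11). Krt23 had the largest fall of the family, with 13.2 and 13.3 CPM in labelled dKO, against 149 and 139 CPM in WT (log2 fold change -3.44). The simple epithelial keratins split, as Krt7 (0.66) and Krt8 (0.48) rose while Krt18 (-0.66) and Krt19 (-0.47) fell.

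Luminal genes fell more often than they rose. So did all genes tested (29.6% risen, 35.8% fallen) and, by more, those between 100 and 500 CPM (23.7% risen, 62.9% fallen). Of 20 uroplakin and luminal genes 18 were tested, of which 5 rose, 10 fell and 3 did not pass (median -0.49). Upk3b, a uroplakin-like gene best known from mesothelium, fell to 0.106 and 0.0280 CPM in labelled dKO, against 1.64 and 1.64 CPM in WT (log2 fold change -4.60), and Upk3bl, a related gene, fell as well (36.6 CPM in labelled dKO against 162 CPM in WT, -2.14). Upk1a, a plaque tetraspanin, fell to 0.425 and 0.435 CPM in labelled dKO, against 1.53 and 1.21 CPM in WT (-1.67). Upk1b, a tetraspanin of the urothelial plaque, did not pass, with 144 and 137 CPM in labelled dKO and 138 and 139 CPM in WT. Upk3a rose at a low level, with 2.14 and 2.05 CPM in labelled dKO, against 0.293 and 0.165 CPM in WT (3.18). The raft protein gene Mal (81.6 CPM in labelled dKO against 278 CPM in WT, -1.77) and the prostate stem cell antigen gene Psca (139.7 CPM in labelled dKO against 294 CPM in WT, -1.07) fell, and the surface protease gene Tmprss2 (51.7 CPM in labelled dKO against 12.4 CPM in WT, 2.06) rose. In bulk libraries a lower level can come from fewer cells of a type or from less RNA in each, and these cannot be told apart.

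Cornified envelope genes, which squamous epithelia switch on late, did not share a direction. Of 41 genes 28 were tested, of which 11 rose, 10 fell and 7 did not pass (median 0.11). Cnfn (0.662 CPM in labelled dKO against 8.32 CPM in WT, log2 fold change -3.65) and the corneodesmosin gene Cdsn (7.34 CPM in labelled dKO against 81.5 CPM in WT, -3.47) fell, and so did Sprr1a (67.7 CPM in labelled dKO against 278 CPM in WT, -2.04) and Scel (23.4 CPM in labelled dKO against 79.9 CPM in WT, -1.77). The calcium-binding protein genes S100a7a (28.4 CPM in labelled dKO against 3.46 CPM in WT, 3.04) and S100a9 (37.7 CPM in labelled dKO against 10.2 CPM in WT, 1.89), and the envelope protein gene Ivl (84.5 CPM in labelled dKO against 56.3 CPM in WT, 0.59), rose. In MI-503, 7 of the 28 rose and 15 fell (median -0.67).

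Transcription factors of urothelial identity were divided as well. All 28 were tested, of which 10 rose, 10 fell and 8 did not pass, and their median of -0.01 turned above 0 under RLE scaling as well as library size only. Tbx3 (39.98 CPM in labelled dKO against 18.04 CPM in WT, log2 fold change 1.15), Sox2 (75.8 CPM in labelled dKO against 39.1 CPM in WT, 0.95), Tfap2a (61.7 CPM in labelled dKO against 35.2 CPM in WT, 0.81) and Klf5 (339 CPM in labelled dKO against 226 CPM in WT, 0.58) rose. Pparg, the nuclear receptor of luminal differentiation, fell to 8.49 and 7.51 CPM in labelled dKO, against 20.8 and 20.7 CPM in WT (log2 fold change -1.38, SE 0.0880, adjusted p = 8.57e-09), with no overlap between the groups. The grainyhead factor gene Grhl1 (18.7 CPM in labelled dKO against 60.05 CPM in WT, -1.69) and the epithelial factor gene Elf3 (49.4 CPM in labelled dKO against 86.2 CPM in WT, -0.80) also fell, while Gata3 (0.45) and Foxa1 (0.43) rose by smaller amounts.

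**Figure D2:**
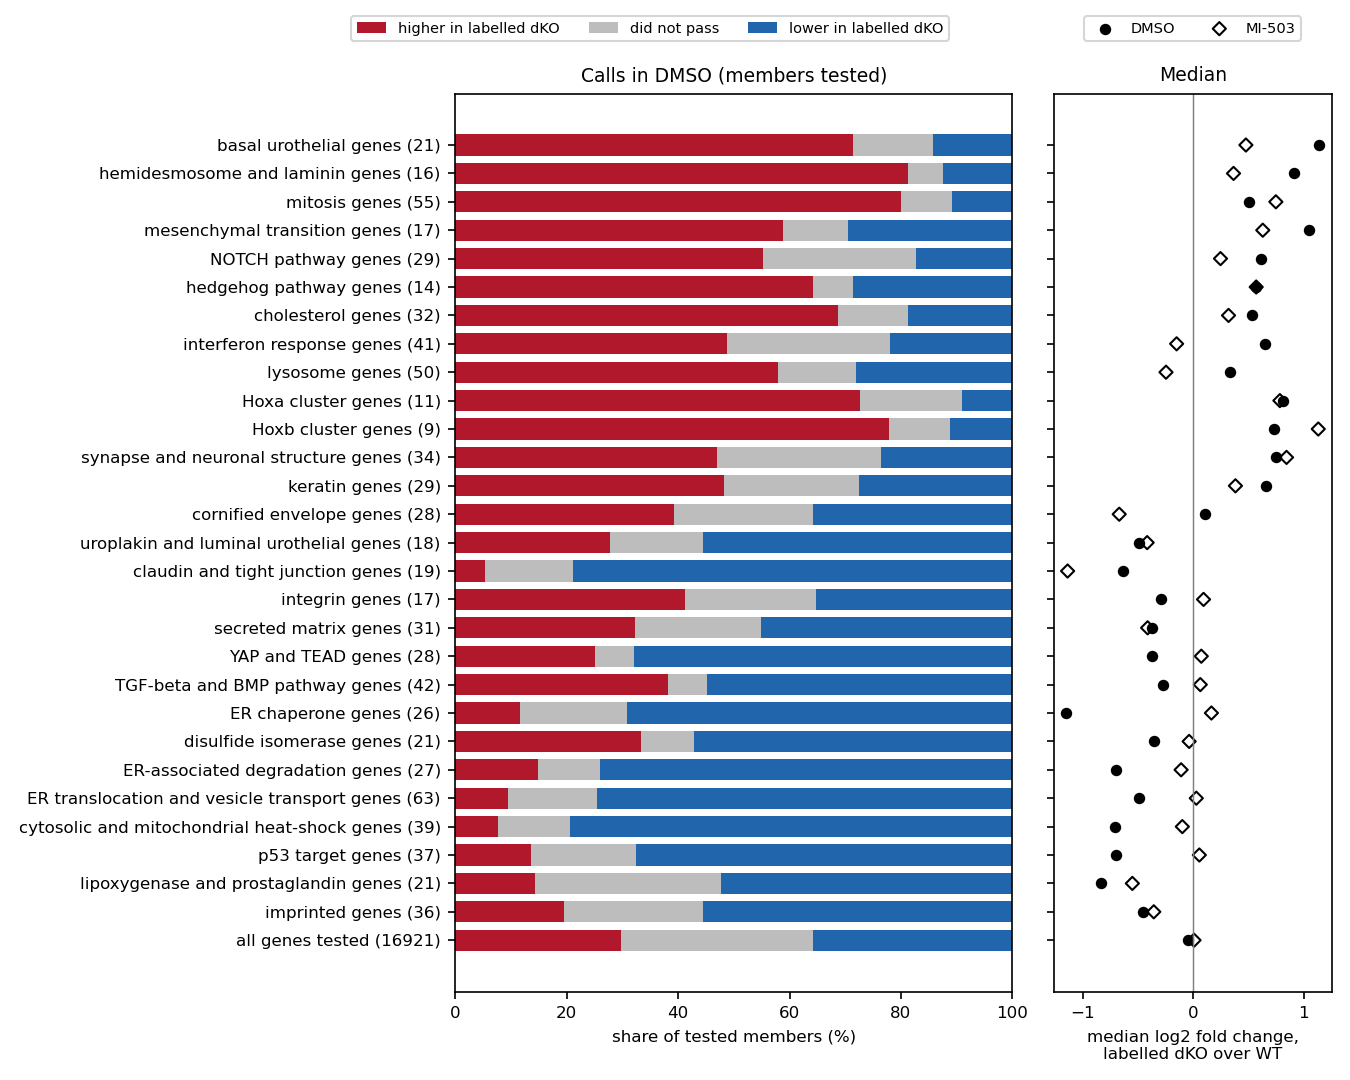
Left, share of tested members of 28 gene lists, and of all 16921 genes tested, that were higher, did not pass or were lower in labelled dKO against WT in DMSO, with the number tested in brackets; right, the median log2 fold change of the same members in DMSO (filled circles) and in MI-503 (open diamonds). Hemidesmosome, mitosis and Hoxb cluster lists have the largest shares of risen members, and tight junction, heat-shock, ER translocation and ER degradation lists the largest shares of fallen members.

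Genes of attachment to the basement membrane mostly rose, where 29.6% of all genes tested rose and 35.8% fell. Of 21 hemidesmosome and laminin genes 16 were tested, of which 13 rose, 2 fell and 1 did not pass (median 0.91). Itgb4, the beta subunit of the laminin receptor of hemidesmosomes, had 1550.3 and 1836 CPM in labelled dKO, against 685 and 576 CPM in WT (log2 fold change 1.43, SE 0.0978, adjusted p = 1.78e-08). Col17a1, the transmembrane collagen of hemidesmosomes, had 2262 and 2506 CPM in labelled dKO, against 1053 and 944 CPM in WT (log2 fold change 1.26). Both genes were higher in each library labelled dKO. The laminin chain genes Lama3 and Lamb3 rose by 0.72 and 1.33, and the linker genes Dst (0.76) and Plec (0.94) rose as well. Lamb2 (5.07 CPM in labelled dKO against 1.10 CPM in WT, 2.21) and Fras1 (5.90 CPM in labelled dKO against 0.607 CPM in WT, 3.28), a basement membrane protein of embryonic skin, rose at low levels. Lama5, the laminin chain of many mature basement membranes, fell (348 CPM in labelled dKO against 594 CPM in WT, -0.77). Lamc1 was called at -0.12, a difference that most alternatives did not call and that turned to 0.11 with library size only.

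Claudin and tight junction genes mostly fell, where 35.8% of all genes tested fell in DMSO and 28.5% in MI-503. Of 32 genes 19 were tested, of which 1 rose, 15 fell and 3 did not pass (median -0.63), and in MI-503 1 rose and 16 fell (median -1.14). Tjp1, the scaffold protein ZO-1, had 209 and 198 CPM in labelled dKO, against 517 and 516 CPM in WT (log2 fold change -1.34, SE 0.0494, adjusted p = 3.17e-11). Ocln, a tight junction membrane protein, had 25.2 and 23.8 CPM in labelled dKO, against 69.2 and 65.01 CPM in WT (log2 fold change -1.45). The linkers cingulin and paracingulin, Cgn (4.58 CPM in labelled dKO against 24.4 CPM in WT, -2.41) and Cgnl1 (15.4 CPM in labelled dKO against 89.4 CPM in WT, -2.54), fell further. Cldn4 (161 CPM in labelled dKO against 277 CPM in WT, -0.78) and Cldn7 (63.3 CPM in labelled dKO against 78.9 CPM in WT, -0.32), claudins of urothelium, fell by less. The member that rose was Cldn6, a claudin of embryonic epithelia, with 77.99 and 77.9 CPM in labelled dKO, against 9.41 and 9.34 CPM in WT (log2 fold change 3.05).

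Desmosome and adherens junction genes rose more often than they fell, where 29.6% of all genes tested rose and 35.8% fell. Of 26 genes 25 were tested, of which 14 rose, 6 fell and 5 did not pass (median 0.57). The plaque proteins Dsp (1896 CPM in labelled dKO against 898 CPM in WT, log2 fold change 1.08) and Pkp1 (650.0 CPM in labelled dKO against 253 CPM in WT, 1.36), the E-cadherin gene Cdh1 (495 CPM in labelled dKO against 333 CPM in WT, 0.57) and Nectin3 (8.93 CPM in labelled dKO against 0.197 CPM in WT, 5.49) rose. Pkp2 (1.55 CPM in labelled dKO against 8.70 CPM in WT, -2.49), Nectin2 (29.6 CPM in labelled dKO against 92.9 CPM in WT, -1.65) and the afadin gene Afdn (278 CPM in labelled dKO against 609 CPM in WT, -1.13) fell. The classical cadherin gene Cdh6 had 380 counts in the libraries labelled dKO together and 0 in WT, which makes it at least 112-fold higher when WT is set at 3 counts over both libraries.

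Integrin, collagen and matrix genes held large changes of both signs. Of 24 integrin genes 17 were tested, and 7 rose, 6 fell and 4 did not pass. Itga3 (1732 CPM in labelled dKO against 833 CPM in WT, log2 fold change 1.06), a partner of Itgb1 in laminin receptors, and Itgb6 (72.2 CPM in labelled dKO against 27.5 CPM in WT, 1.39), an activator of latent TGF-beta, rose, whereas Itgb7 (18.4 CPM in labelled dKO against 105 CPM in WT, -2.50), Itgav (148 CPM in labelled dKO against 314 CPM in WT, -1.09) and Itgb5 (37.4 CPM in labelled dKO against 75.2 CPM in WT, -1.01) fell. Of 44 collagen chain genes 22 were tested, and 7 rose, 8 fell and 7 did not pass. The basement membrane chains Col4a1 (12.03 CPM in labelled dKO against 35.3 CPM in WT, -1.55) and Col4a2 (19.4 CPM in labelled dKO against 60.4 CPM in WT, -1.64), which share a promoter region, fell, and Col18a1 (1093 CPM in labelled dKO against 373 CPM in WT, 1.55) rose. Of 44 secreted matrix genes 31 were tested, and 10 rose, 14 fell and 7 did not pass (median -0.37). Fn1, fibronectin, had 174 and 176 CPM in labelled dKO, against 38.04 and 33.8 CPM in WT (log2 fold change 2.29, SE 0.0636, adjusted p = 2.11e-12), and Hspg2, perlecan, had 1.71 and 2.40 CPM in labelled dKO, against 47.8 and 39.4 CPM in WT (log2 fold change -4.40, SE 0.146, adjusted p = 1.13e-11). The groups did not overlap for either gene. Ltbp4, a binder of latent TGF-beta, rose as well (168 CPM in labelled dKO against 29.7 CPM in WT, 2.50). Of 111 matrix protease and inhibitor genes 52 were tested, and 15 rose, 23 fell and 14 did not pass (median -0.31). Adamts15, a proteoglycanase (12.5 CPM in labelled dKO against 0.377 CPM in WT, 5.04), and Serpinb8 (73.04 CPM in labelled dKO against 16.2 CPM in WT, 2.18) rose most among members with at least 5 CPM.

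Genes linked to mesenchymal transition were more often higher, where 29.6% of all genes tested rose and 35.8% fell. Of 22 genes 17 were tested, of which 10 rose, 5 fell and 2 did not pass (median 1.04). The repressors of epithelial genes Zeb2 (15.7 CPM in labelled dKO against 1.72 CPM in WT, log2 fold change 3.19), Snai2 (318 CPM in labelled dKO against 135 CPM in WT, 1.23) and Twist2 (32.9 CPM in labelled dKO against 15.96 CPM in WT, 1.04) rose. Vim, vimentin, rose at a low level with 3.35 and 3.92 CPM in labelled dKO, against 0.488 and 0.496 CPM in WT (2.88). Axl, a receptor kinase, fell (51.1 CPM in labelled dKO against 223 CPM in WT, -2.12), as did Sparc. The fibroblast marker list had a summed level of 622 and 585 CPM in labelled dKO, against 609 and 595 CPM in WT, most of it from Ly6a, which epithelial cells also make; its part in these values was not tested.

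Signalling genes were examined by ligand, receptor and target. Of 19 WNT ligand genes 9 were tested, and 5 rose, 3 fell and 1 did not pass. Wnt10a (115 CPM in labelled dKO against 35.2 CPM in WT, log2 fold change 1.71), Wnt3a (9.53 CPM in labelled dKO against 4.10 CPM in WT, 1.22) and Wnt7b (209 CPM in labelled dKO against 101 CPM in WT, 1.04) rose, and Wnt7a (6.33 CPM in labelled dKO against 55.3 CPM in WT, -3.12) and Wnt4 (61.5 CPM in labelled dKO against 138 CPM in WT, -1.17) fell. Of 45 WNT receptor, feedback and target genes 33 were tested, and 15 rose, 10 fell and 8 did not pass (median 0.16). Wif1, a secreted WNT inhibitor, had 5.97 and 6.13 CPM in labelled dKO, against 0.0488 and 0.0331 CPM in WT, and the ubiquitin ligase gene Rnf43, a feedback target, rose (38.03 CPM in labelled dKO against 8.30 CPM in WT, 2.20). The receptors Fzd5 (15.3 CPM in labelled dKO against 45.97 CPM in WT, -1.59), Fzd7 (18.1 CPM in labelled dKO against 50.9 CPM in WT, -1.49) and Fzd4 (21.5 CPM in labelled dKO against 47.3 CPM in WT, -1.14) fell, as did the repressor of WNT targets Tcf7l1 (1.98 CPM in labelled dKO against 10.96 CPM in WT, -2.46), and Fzd6 (112 CPM in labelled dKO against 82.4 CPM in WT, 0.45) rose.

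Hedgehog and NOTCH genes rose more often than they fell by count, where 29.6% of all genes tested rose and 35.8% fell. Summed over tested members, NOTCH genes were lower, with 1746 and 1879 CPM in labelled dKO against 2236 and 2158 CPM in WT. Of 19 hedgehog genes 14 were tested, of which 9 rose, 4 fell and 1 did not pass (median 0.57). Smo, the signal transducer of the pathway, had 166 and 174 CPM in labelled dKO, against 62.6 and 57.1 CPM in WT (log2 fold change 1.51, SE 0.0541, adjusted p = 2.53e-11), and the co-receptor gene Gas1 rose (10.6 CPM in labelled dKO against 2.02 CPM in WT, log2 fold change 2.39). The transcription factor gene Gli2 had 297 counts in labelled dKO and 2 in WT, a ratio of 132 with a 95% counting interval of 36.2 to 1094, while the receptor and target gene Ptch1 did not pass (-0.08). Of 33 NOTCH pathway genes 29 were tested, of which 16 rose, 5 fell and 8 did not pass (median 0.62). Notch1 fell to 99.3 and 119.6 CPM in labelled dKO, against 598 and 548 CPM in WT (log2 fold change -2.39, SE 0.0872, adjusted p = 3.00e-11), and so did its DNA-binding partner Rbpj (53.9 CPM in labelled dKO against 255 CPM in WT, -2.24) and the ligand gene Dll1 (23.2 CPM in labelled dKO against 86.7 CPM in WT, -1.90). Notch3 (33.9 CPM in labelled dKO against 11.1 CPM in WT, 1.61), the glycosyltransferase gene Lfng (30.1 CPM in labelled dKO against 7.18 CPM in WT, 2.07) and the target gene Hes1 (127 CPM in labelled dKO against 49.2 CPM in WT, 1.37) rose. In MI-503, the genotype difference of Notch1 was -0.52.

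Several ligands of the EGF receptor family rose while several receptors fell. Of 34 EGF and FGF pathway genes 27 were tested, and 10 rose, 13 fell and 4 did not pass (median -0.42). Summed over tested members, the level was higher, with 2902 and 2830 CPM in labelled dKO against 1890 and 1928 CPM in WT. The ligand gene Ereg was among the most read members that rose (712 CPM in labelled dKO against 244 CPM in WT, log2 fold change 1.54). Nrg1 (658 CPM in labelled dKO against 291 CPM in WT, log2 fold change 1.18), Areg (509 CPM in labelled dKO against 317 CPM in WT, 0.68) and Btc (11.2 CPM in labelled dKO against 6.19 CPM in WT, 0.86) rose, besides Epgn. Erbb3 (32.9 CPM in labelled dKO against 48.98 CPM in WT, -0.57), Fgfr2 (37.1 CPM in labelled dKO against 53.1 CPM in WT, -0.52) and Fgfr3 (3.35 CPM in labelled dKO against 4.69 CPM in WT, -0.48), the FGF receptor often mutated in bladder cancer, fell, and Erbb2 (54.2 CPM in labelled dKO against 42.5 CPM in WT, 0.35) rose. The ligand genes Fgf21 (0.943 CPM in labelled dKO against 11.4 CPM in WT, -3.58) and Fgf11 (1.41 CPM in labelled dKO against 8.19 CPM in WT, -2.54) fell at lower levels. Of 33 MAPK feedback and AP-1 genes, all tested, 17 rose, 10 fell and 6 did not pass (median 0.19). The immediate early genes Egr1 (123.4 CPM in labelled dKO against 49.9 CPM in WT, 1.31) and Junb (99.7 CPM in labelled dKO against 36.8 CPM in WT, 1.44) rose, as did Egr3 (1.46) and Fosb (1.46), whereas Atf3 (77.6 CPM in labelled dKO against 178 CPM in WT, -1.20), Dusp5 (35.8 CPM in labelled dKO against 93.6 CPM in WT, -1.39) and Maff (13.5 CPM in labelled dKO against 38.1 CPM in WT, -1.50) fell.

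TGF-beta family and YAP pathway genes fell more often than they rose. So did all genes tested (29.6% risen, 35.8% fallen) and, by more, all genes between 100 and 500 CPM (23.7% risen, 62.9% fallen). Of 47 TGF-beta and BMP genes 42 were tested, of which 16 rose, 23 fell and 3 did not pass (median -0.28). The activin subunit gene Inhba had 176 and 176 CPM in labelled dKO, against 36.6 and 35.98 CPM in WT (log2 fold change 2.28, SE 0.0484, adjusted p = 1.66e-13), and Bmp2 rose as well (81.8 CPM in labelled dKO against 22.1 CPM in WT, log2 fold change 1.89). The receptor genes Tgfbr1 (28.6 CPM in labelled dKO against 68.01 CPM in WT, -1.25), Bmpr1b (1.95 CPM in labelled dKO against 20.6 CPM in WT, -3.40), the co-receptor gene Tgfbr3 (1.47 CPM in labelled dKO against 5.37 CPM in WT, -1.87) and the signal transducer Smad3 (64.3 CPM in labelled dKO against 136 CPM in WT, -1.08) fell. Grem1, a secreted BMP inhibitor, had 7.85 and 7.12 CPM in labelled dKO, against 0.0326 and 0.0496 CPM in WT, with a rise in both libraries. Of 28 YAP and TEAD genes, all tested, 7 rose, 19 fell and 2 did not pass (median -0.38). Tead1, a DNA-binding partner of YAP, had 246 and 235 CPM in labelled dKO, against 552 and 576 CPM in WT (log2 fold change -1.23, SE 0.0469, adjusted p = 4.67e-11). The target gene Ccn1 (37.1 CPM in labelled dKO against 98.5 CPM in WT, -1.41) and the TEAD cofactor gene Vgll3 (21.2 CPM in labelled dKO against 61.8 CPM in WT, -1.54) fell, and Ankrd1, another target, rose (15.01 CPM in labelled dKO against 4.27 CPM in WT, 1.81). In MI-503 the median of the YAP list was 0.07, with 10 risen and 8 fallen. Of 25 retinoid genes 18 were tested, and 10 rose, 6 fell and 2 did not pass, led by the retinol importer gene Stra6, which had 606 and 633 CPM in labelled dKO, against 151 and 131 CPM in WT (2.14). The retinaldehyde reductase gene Dhrs3, a retinoid target, rose (61.7 CPM in labelled dKO against 25.5 CPM in WT, 1.28), and the binding protein gene Crabp2 fell (0.473 CPM in labelled dKO against 5.05 CPM in WT, -3.39).

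Genes for protein folding held large falls among strongly read genes. Among genes with at least 500 CPM in either group, the 3 largest falls were those of the heat-shock genes Hspb1, Hsph1 and Hspa1b. Chaperones of the endoplasmic reticulum (ER) fold secreted and membrane proteins, and cells raise them through the sensors ATF6, IRE1 and PERK when folding lags. A composite DNA element of CCAAT and CCACG with 9 bases between them is known from promoters of such genes as the ER stress response element. Its letters, on either strand, were in the windows of 17 of the 10884 tested genes (0.156%) and of 35 of all 27018 windows (0.13%). Of 22 tested ER chaperone genes with a window, 6 held it (27.3%), and all 6 were among the 16 that fell. The element was looked for after the values were seen, so these shares are a description with no test, and a match says nothing of what binds there. Stretches before the start of 5 genes with the element are printed 5′ to 3′ on the gene's strand, from RefSeq on GRCm38.p6, to show where it lies in genes that fell together, with the paired CCAAT and CCACG (or CGTGG and ATTGG on the other strand) in capitals. They lie at chr2:34771910-34772089 (Hspa5, plus strand), chr15:88819466-88819645 (Creld2, plus), chr10:75893218-75893397 (Derl3, plus), chr12:17266409-17266588 (Pdia6, plus) and chr10:86705445-86705694 (Hsp90b1, minus).
Hspa5: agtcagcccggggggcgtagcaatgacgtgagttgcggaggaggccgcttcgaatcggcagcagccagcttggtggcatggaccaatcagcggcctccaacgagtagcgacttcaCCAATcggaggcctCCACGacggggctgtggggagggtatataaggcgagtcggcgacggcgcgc
Creld2: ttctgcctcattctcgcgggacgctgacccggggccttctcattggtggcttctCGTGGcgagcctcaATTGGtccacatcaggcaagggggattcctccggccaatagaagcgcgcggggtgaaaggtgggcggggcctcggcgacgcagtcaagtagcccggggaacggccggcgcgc
Derl3: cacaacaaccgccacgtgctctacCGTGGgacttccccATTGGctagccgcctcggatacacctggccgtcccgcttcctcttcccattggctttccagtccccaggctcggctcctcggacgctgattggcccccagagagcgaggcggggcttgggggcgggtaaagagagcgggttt
Pdia6: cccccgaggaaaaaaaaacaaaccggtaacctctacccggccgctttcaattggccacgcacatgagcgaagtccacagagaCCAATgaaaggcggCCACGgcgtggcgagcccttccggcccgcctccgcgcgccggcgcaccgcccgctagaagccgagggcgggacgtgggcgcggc
Hsp90b1: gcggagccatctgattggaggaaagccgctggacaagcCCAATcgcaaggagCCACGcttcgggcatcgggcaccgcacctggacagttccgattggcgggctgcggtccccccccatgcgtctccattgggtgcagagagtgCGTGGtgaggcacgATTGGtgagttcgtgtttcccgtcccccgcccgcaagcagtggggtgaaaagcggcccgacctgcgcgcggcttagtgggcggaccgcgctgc
The Hsp90b1 stretch held 2 matches and each of the others held 1, and the first base of the first match was 65 bases before the start of Hspa5, 98 before Pdia6, 126 before Creld2, 156 before Derl3 and 212 before Hsp90b1. Of the 17 tested genes with the element 13 fell, 3 rose and 1 did not pass. Those that rose were Spats2l, Acacb and Pan2, and the fallen ones outside protein folding included the adenylate cyclase gene Adcy3 (1.03 CPM in labelled dKO against 6.93 CPM in WT, log2 fold change -2.74).

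Of 27 ER chaperone genes 26 were tested, of which 3 rose, 18 fell and 5 did not pass (median -1.15). Over all genes tested, 29.6% rose and 35.8% fell. Hspa5, the main chaperone of the ER (BiP), had 1511 and 1457 CPM in labelled dKO, against 14102 and 15236 CPM in WT (log2 fold change -3.31, SE 0.0562, adjusted p = 2.23e-14). Hsp90b1, the ER member of the HSP90 family, had 695 and 632 CPM in labelled dKO, against 8610.2 and 9519 CPM in WT (log2 fold change -3.77). Both WT libraries stood far above both libraries labelled dKO. Calr, which holds glycoproteins until they are folded, had 442 and 408 CPM in labelled dKO, against 3394 and 3621 CPM in WT (-3.04). Sdf2l1, a cofactor of BiP, had 13.2 and 13.8 CPM in labelled dKO, against 293 and 289.8 CPM in WT (-4.43). The cyclophilin gene Ppic was the member with the largest rise (129 CPM in labelled dKO against 56.9 CPM in WT, 1.18). Summed over the tested members, this list reached 4650 and 4395 CPM in labelled dKO, against 33550 and 36133 CPM in WT. In the MI-503 libraries the same sum was 3418 and 3453 CPM in labelled dKO and 3222 and 3264 CPM in WT, so that the WT DMSO libraries stood apart from all 6 others, and 14 members rose and 6 fell between the genotypes there (median 0.16).

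Genes of the steps around the chaperones fell more often than they rose in DMSO. Of all genes tested 35.8% fell, and of those between 100 and 500 CPM 62.9% fell. Of 25 disulfide isomerase genes 21 were tested, and 7 rose, 12 fell and 2 did not pass, with Pdia4 at 222 CPM in labelled dKO against 2647 CPM in WT (log2 fold change -3.58) and Pdia6 at 225 CPM in labelled dKO against 1647 CPM in WT (-2.87). Of 28 genes of ER-associated degradation 27 were tested, and 4 rose, 20 fell and 3 did not pass (median -0.70), among them Edem1 (74.3 CPM in labelled dKO against 263 CPM in WT, -1.82), which hands misfolded glycoproteins on, and the ubiquitin ligase gene Syvn1 (44.3 CPM in labelled dKO against 121 CPM in WT, -1.45). Of 63 genes of ER translocation and vesicle transport, all tested, 6 rose, 47 fell and 10 did not pass (median -0.49), with Ssr3 (302 CPM in labelled dKO against 963 CPM in WT, -1.67) and the signal peptidase subunit Spcs2 (107 CPM in labelled dKO against 337 CPM in WT, -1.66) at the low end. Of 18 sensor and transcription factor genes of the response 17 were tested, and 4 rose, 9 fell and 4 did not pass. Ddit3, the factor CHOP, had 140.5 and 151 CPM in labelled dKO, against 637 and 606 CPM in WT (log2 fold change -2.09, SE 0.0661, adjusted p = 7.40e-12), and Atf6 (199 CPM in labelled dKO against 490.0 CPM in WT, -1.30) and Xbp1 (101 CPM in labelled dKO against 210.0 CPM in WT, -1.05) fell, whereas the sensor-like gene Atf6b (60.4 CPM in labelled dKO against 25.1 CPM in WT, 1.26) and the protease gene Mbtps1, which cuts ATF6 (164 CPM in labelled dKO against 86.1 CPM in WT, 0.93), rose and Atf4 did not pass (548 CPM in labelled dKO against 569.7 CPM in WT, -0.06). In MI-503 the medians of these 4 lists were -0.04, -0.11, 0.03 and -0.07, in the order given.

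Heat-shock genes of the cytosol and mitochondria, which a different factor (HSF1) controls, fell too. Over all genes tested, 35.8% fell, as did 62.9% of those between 100 and 500 CPM. Of 41 genes 39 were tested, of which 3 rose, 31 fell and 5 did not pass (median -0.71). Hspb1, a small heat-shock protein, had 12.1 and 15.6 CPM in labelled dKO, against 538 and 523 CPM in WT (log2 fold change -5.26, SE 0.112, adjusted p = 1.64e-13). Hsph1, a nucleotide exchange factor of HSP70, had 100.04 and 89.7 CPM in labelled dKO, against 1966 and 2231 CPM in WT (log2 fold change -4.47, SE 0.0768, adjusted p = 2.46e-14). The groups were separated for both genes. Hspa8 (842 CPM in labelled dKO against 5826 CPM in WT, -2.79), Hsp90aa1 (1067 CPM in labelled dKO against 6262 CPM in WT, -2.55) and the mitochondrial chaperonin gene Hspd1 (768 CPM in labelled dKO against 3095 CPM in WT, -2.01) fell as well, and Hspa1b fell (34.3 CPM in labelled dKO against 743 CPM in WT, -4.44), with reads that its near copy Hspa1a may share. Hsf1 itself rose (53.3 CPM in labelled dKO against 34.98 CPM in WT, 0.61). Summed over the members tested, the level was 13969 and 13121 CPM in labelled dKO, against 34810 and 37473 CPM in WT, and in MI-503 it was 16327 and 16639 CPM in labelled dKO and 18564 and 19278 CPM in WT. In MI-503, 8 members rose and 18 fell between the genotypes (median -0.10), and Hspb1 still fell there (log2 fold change -2.97).

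**Figure D3:**
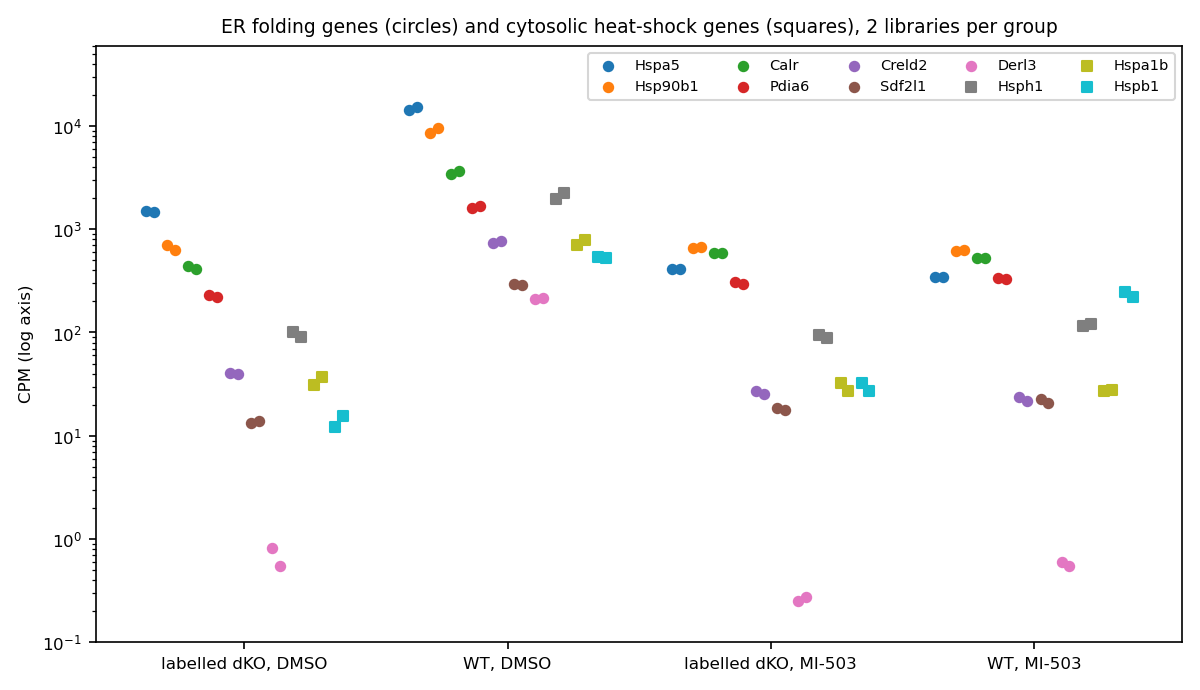
CPM on a log axis of 7 ER folding genes (circles) and 3 cytosolic heat-shock genes (squares) in the 2 libraries of each group, labelled dKO left of WT in DMSO and in MI-503. All 10 genes are highest in the 2 WT DMSO libraries. In MI-503 the genotypes lie close together for most of them, while Hspb1 and, at few reads, Derl3 are lower in labelled dKO.

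Amino acid and integrated stress response genes, many of them ATF4 targets, did not share a direction. Of 38 genes, all tested, 16 rose, 14 fell and 8 did not pass (median 0.00). Shmt2 (499 CPM in labelled dKO against 155 CPM in WT, log2 fold change 1.68) and Phgdh (339.5 CPM in labelled dKO against 172 CPM in WT, 0.98), enzymes of serine and one-carbon metabolism, rose, while Psat1 (688 CPM in labelled dKO against 1324 CPM in WT, -0.94) and the glutamine transporter gene Slc38a2 (1259 CPM in labelled dKO against 3500.1 CPM in WT, -1.48) fell, as did the secreted factor gene Stc2 (4.59 CPM in labelled dKO against 30.3 CPM in WT, -2.72). The 20 cytosolic aminoacyl-tRNA synthetase genes split into 11 risen, 8 fallen and 1 not passing, from Vars at 1.29 and Mars at 1.07 to Cars at -1.22 and Rars at -1.23.

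p53 target genes mostly fell, where 35.8% of all genes tested and 62.9% of those between 100 and 500 CPM fell. Of 37 genes, all tested, 5 rose, 25 fell and 7 did not pass (median -0.69), beside a median of 0.06 in MI-503, where 12 rose and 14 fell. Summed over members, the level was 4973 and 4915 CPM in labelled dKO, against 8965 and 9440 CPM in WT. In MI-503 the sum was 5501 and 5545 CPM in labelled dKO and 5353 and 5495 CPM in WT. The WT DMSO libraries thus stood above all the others. Fas, the death receptor, had 1.67 and 1.77 CPM in labelled dKO, against 19.9 and 24.1 CPM in WT (log2 fold change -3.68, SE 0.123, adjusted p = 1.24e-11). Eda2r, a receptor of the TNF family, had 21.3 and 18.6 CPM in labelled dKO, against 122 and 135 CPM in WT (log2 fold change -2.69). Neither gene overlapped between groups. Trp53i11 fell furthest (0.391 CPM in labelled dKO against 17.7 CPM in WT, -5.49). Mdm2, the ubiquitin ligase of p53, fell (114 CPM in labelled dKO against 257 CPM in WT, -1.17), as did Ccng1 (460.4 CPM in labelled dKO against 1163 CPM in WT, -1.34) and Trp53 itself (194 CPM in labelled dKO against 288 CPM in WT, -0.57). Phlda3 (317 CPM in labelled dKO against 156 CPM in WT, 1.03) and Ckap2 (42.2 CPM in labelled dKO against 25.2 CPM in WT, 0.74) rose, and Bax (-0.03) and Bbc3 (-0.08), which promote cell death, did not pass.

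Genes of mitosis mostly rose in DMSO and in MI-503. Of 55 genes, all tested, 44 rose, 6 fell and 5 did not pass (median 0.50), and in MI-503 54 rose and 1 did not pass (median 0.75). Over all genes tested, 29.6% rose and 35.8% fell in DMSO, and 26.6% rose and 28.5% fell in MI-503. Espl1, separase, had 30.8 and 30.7 CPM in labelled dKO, against 11.3 and 9.08 CPM in WT (log2 fold change 1.59, SE 0.0884, adjusted p = 2.06e-09). Top2a, a topoisomerase of dividing cells, had 522 and 494 CPM in labelled dKO, against 279 and 276 CPM in WT (log2 fold change 0.87), and Ndc80 (61.8 CPM in labelled dKO against 25.2 CPM in WT, 1.29) and Mki67 (271 CPM in labelled dKO against 219.6 CPM in WT, 0.30) rose too. The members that fell were Smc2 (-0.53), Hmmr (-0.50), Ect2 (-0.32), Mad2l1 (-0.28), Bub3 (-0.20) and Ncapg (-0.18). DNA replication genes moved less, with 22 risen, 11 fallen and 11 not passing of 44 (median 0.10), Pold1 at 1.21 and Chaf1a at 1.04 as the highest and Cdc6 at -1.25 and Cdc45 at -0.82 as the lowest. Among 31 cyclin, E2F and CDK inhibitor genes, 14 rose, 11 fell and 6 did not pass. E2f8 (51.3 CPM in labelled dKO against 17.01 CPM in WT, 1.59) and the mitotic cyclin gene Ccnb2 (54.3 and 51.2 CPM in labelled dKO against 20.6 and 17.6 CPM in WT, 1.47) rose, and Ccne1 fell (9.22 CPM in labelled dKO against 20.1 CPM in WT, -1.13). Among CDK inhibitors, Cdkn2c (8.55 CPM in labelled dKO against 3.33 CPM in WT, 1.36) rose and Cdkn1c (1.08 CPM in labelled dKO against 3.80 CPM in WT, -1.82) fell. Of 46 nucleolar genes tested 13 rose and 27 fell, with a median of -0.20 that turned above 0 with library size only, and Myc (303 CPM in labelled dKO against 463 CPM in WT, -0.61) and Mycl (3.93 CPM in labelled dKO against 43.4 CPM in WT, -3.46) were among the fallen while Bop1 (99.7 CPM in labelled dKO against 35.96 CPM in WT, 1.47) rose.

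Ribosomal and respiratory genes had medians near that of all genes. Of 78 tested cytosolic ribosomal protein genes 26 rose and 33 fell, and the median of -0.07 turned above 0 with library size only. Rpl8 (1110.0 CPM in labelled dKO against 412 CPM in WT, log2 fold change 1.43) and Rpl5 (1363 CPM in labelled dKO against 2269.6 CPM in WT, -0.74) lay near the ends of the range. Of 81 tested respiratory chain genes of the nucleus 25 rose, 39 fell and 17 did not pass (median -0.14, above 0 with library size only), from Ndufb8 (57.4 CPM in labelled dKO against 22.6 CPM in WT, 1.34), a subunit of complex I, to Ndufa4 (181 CPM in labelled dKO against 467 CPM in WT, -1.37), a subunit of complex IV. Of 13 transcripts of the mitochondrial genome 2 rose, 5 fell and 6 did not pass.

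Among metabolic genes, those of cholesterol and of lysosomes rose more often than they fell by count. Over all genes tested, 29.6% rose and 35.8% fell. Of 33 cholesterol genes 32 were tested, of which 22 rose, 6 fell and 4 did not pass (median 0.53). Srebf2, the regulator of the pathway, had 255 and 298 CPM in labelled dKO, against 116 and 105 CPM in WT (log2 fold change 1.32), with no overlap between the groups. Abca1, the exporter of cholesterol, fell (0.0881 CPM in labelled dKO against 4.55 CPM in WT, -5.67). The kinases of the mevalonate pathway, Mvk (10.9 CPM in labelled dKO against 1.98 CPM in WT, 2.46) and Pmvk (16.9 CPM in labelled dKO against 3.13 CPM in WT, 2.43), rose most among members with at least 5 CPM, and the later enzymes Lss (51.8 CPM in labelled dKO against 97.00 CPM in WT, -0.91) and Ebp (50.6 CPM in labelled dKO against 93.9 CPM in WT, -0.89) fell. Of 52 lysosome genes 50 were tested, of which 29 rose, 14 fell and 7 did not pass (median 0.33), while in MI-503 10 rose and 30 fell (median -0.25). Summed over tested members, lysosome genes were lower, with 3926 and 3818 CPM in labelled dKO against 4831 and 4818 CPM in WT. Naglu (11.7 CPM in labelled dKO against 4.31 CPM in WT, 1.44) and Asah1 (231 CPM in labelled dKO against 107 CPM in WT, 1.11), enzymes of lysosomal breakdown, rose, and the cathepsin gene Ctsl fell (291 CPM in labelled dKO against 1260.2 CPM in WT, -2.12). Of 43 fatty acid and PPAR target genes 36 were tested, and 10 rose, 15 fell and 11 did not pass (median -0.08, above 0 with library size only). The desaturase gene Scd1 (95.2 CPM in labelled dKO against 35.4 CPM in WT, 1.43) rose, and Cpt1a (1.38 CPM in labelled dKO against 8.07 CPM in WT, -2.54), the gatekeeper of fatty acid oxidation, and Fabp5 (46.3 CPM in labelled dKO against 184 CPM in WT, -1.99) fell. Of 33 lipoxygenase and prostaglandin genes 21 were tested, and 3 rose, 11 fell and 7 did not pass (median -0.83). Ptgs2, cyclooxygenase 2, rose (966 CPM in labelled dKO against 618 CPM in WT, 0.65), and the synthase gene Ptges fell (91.4 CPM in labelled dKO against 173 CPM in WT, -0.92), as did Alox12 (2.34 CPM in labelled dKO against 10.3 CPM in WT, -2.15). Pkm (1582 CPM in labelled dKO against 665 CPM in WT, 1.25) rose and Ldha (647 CPM in labelled dKO against 941 CPM in WT, -0.54) fell among glycolysis genes, of which 18 rose and 18 fell.

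Innate immune genes changed in both directions, where 29.6% of all genes tested rose and 35.8% fell. Of 46 interferon response genes 41 were tested, of which 20 rose, 9 fell and 12 did not pass (median 0.65). Their summed level was lower, with 270 and 262 CPM in labelled dKO against 310 and 306 CPM in WT. Irf9, a subunit of the interferon-activated factor, had 21.5 and 23.2 CPM in labelled dKO, against 5.44 and 5.19 CPM in WT (log2 fold change 2.07, SE 0.105, adjusted p = 8.64e-10). Irf1 moved the other way, with 2.40 and 1.85 CPM in labelled dKO, against 19.4 and 18.5 CPM in WT (log2 fold change -3.16, SE 0.110, adjusted p = 1.78e-11), and Usp18, a brake on the response, fell (4.71 CPM in labelled dKO against 29.7 CPM in WT, -2.66). Both genes were separated between the groups. Parp14, another interferon-induced gene, rose (11.3 CPM in labelled dKO against 5.95 CPM in WT, 0.92). In MI-503, 7 members rose and 18 fell (median -0.15). Of 27 MHC class I and antigen presentation genes 23 were tested, and 11 rose, 8 fell and 4 did not pass, with the light chain gene B2m risen (88.4 CPM in labelled dKO against 48.01 CPM in WT, 0.88) and Tapbpl fallen (13.8 CPM in labelled dKO against 36.2 CPM in WT, -1.39). Of 93 cytokine and chemokine genes 38 were tested, of which 11 rose, 18 fell and 9 did not pass (median -0.64). Il23a, a subunit of interleukin 23, had 0.652 and 0.701 CPM in labelled dKO, against 69.4 and 67.6 CPM in WT (log2 fold change -6.66, SE 0.101, adjusted p = 1.04e-14). Il1a (30.7 CPM in labelled dKO against 101 CPM in WT, -1.72) and its antagonist Il1rn (17.4 CPM in labelled dKO against 83.5 CPM in WT, -2.26) fell, as did Il24 (1.84 CPM in labelled dKO against 20.99 CPM in WT, -3.51), and Tslp (29.6 CPM in labelled dKO against 11.1 CPM in WT, 1.41) and Il33 (77.1 CPM in labelled dKO against 49.8 CPM in WT, 0.63), alarmins of epithelium, rose. The adhesion gene Icam1 fell (5.44 CPM in labelled dKO against 62.3 CPM in WT, -3.52), and Vcam1 had 0 counts in labelled dKO and 372 in WT, at least 140-fold lower. Immune markers had a summed level of 13.7 and 13.7 CPM in labelled dKO, against 19.5 and 17.0 CPM in WT, and their part in these values was not tested.

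Genes of neurons and of body patterning were measured next. Of 76 synapse and neuronal structure genes 34 were tested, of which 16 rose, 8 fell and 10 did not pass (median 0.74). Their summed level was lower, with 661 and 646 CPM in labelled dKO against 786 and 809 CPM in WT. Map2, a microtubule-associated protein of dendrites, rose (48.7 CPM in labelled dKO against 21.9 CPM in WT, log2 fold change 1.15). Chl1, an adhesion molecule of growing axons, had 3.88 and 3.20 CPM in labelled dKO, against 113 and 121 CPM in WT (log2 fold change -5.06, SE 0.0893, adjusted p = 3.12e-14). For Chl1 both libraries labelled dKO were far below both WT libraries. Of 54 tested axon guidance genes 22 were higher and 21 lower past the threshold. The receptor genes Robo1 (81.3 CPM in labelled dKO against 23.5 CPM in WT, 1.79) and Robo2 (29.2 CPM in labelled dKO against 4.20 CPM in WT, 2.80) rose while their ligand gene Slit2 (9.35 CPM in labelled dKO against 82.02 CPM in WT, -3.13) and the receptor gene Nrp1 (29.4 CPM in labelled dKO against 125 CPM in WT, -2.08) fell. Defining neuron markers summed to 56.7 and 57.2 CPM in labelled dKO, against 22.5 and 24.2 CPM in WT. Most of that sum was Map2 itself, with 49.2 and 48.2 CPM in labelled dKO, against 21.0 and 22.9 CPM in WT. Tubb3 was also higher, with 445 and 612 counts in labelled dKO, against 61 and 69 in WT. At few reads, Stmn2 had 39 and 24 counts in labelled dKO, against 1 and 0 in WT, and Snap25 had 8 and 6, against 3 and 2. Syt1 and Elavl3 had 0 to 2 counts in each library labelled dKO and 1 to 13 in each WT library. Elavl4 and Rbfox3 had 0 or 1 count in each of these libraries. Glial markers summed to 50.1 and 50.4 CPM in labelled dKO, against 116 and 118 CPM in WT, nearly all from Mbp, Erbb3 and Ngfr. Their part in these values was not tested.

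Hox genes of the A and B clusters rose more often than not, where 29.6% of all genes tested rose and 35.8% fell. Of 11 Hoxa genes, all tested, 8 rose, 1 fell and 2 did not pass (median 0.81), and of 9 Hoxb genes tested 7 rose, 1 fell and 1 did not pass (median 0.73). Hoxa13, the most posterior gene of its cluster, had 28.8 and 27.00 CPM in labelled dKO, against 12.2 and 12.7 CPM in WT (log2 fold change 1.17, SE 0.0794, adjusted p = 1.65e-08). The groups did not overlap. Hoxb13 was further apart, with 12.5 and 14.7 CPM in labelled dKO, against 1.33 and 1.34 CPM in WT. Hoxb6 (1.35), Hoxb3 (1.18) and Hoxa3 (1.58) rose, and Hoxa11 (-0.08) did not pass. Of 7 tested Hoxd genes 3 rose and 4 did not pass, and the tested Hoxc genes averaged under 1 CPM in both groups. Of 36 tested imprinted genes 7 rose, 20 fell and 9 did not pass (median -0.46), with Grb10, a growth factor receptor adaptor, at 15.8 CPM in labelled dKO against 3.86 CPM in WT (2.03).

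Several runs of neighbouring genes moved in 1 direction. In 12965 tested genes with a position, 29 runs of at least 4 neighbours had all members risen or all fallen by at least 2-fold, 10 of them risen and 19 fallen. The longest was 14 clustered protocadherin genes on chromosome 18, Pcdhb9 to Pcdhb22, which rose with a median log2 fold change of 4.70 (2.86 in MI-503), though these near-identical genes can share reads. On chromosome 8 (91798511 to 92361456, GRCm38.p6) Irx3, Irx3os, Crnde and Irx5 rose, with a median of 4.17 (6.02 in MI-503). On chromosome 6 (4076899 to 5256285) Bet1, Casd1, Sgce, Peg10, Ppp1r9a and Pon3 fell, with a median of -5.24 (-5.96 in MI-503). On chromosome 15 the run Krt75, Krt6b, Krt6a and Krt5 (101563343 to 101712905) rose, while Slurp1, Lypd2, Slurp2, Lynx1 and Ly6d (74726644 to 74763567), genes of small surface and secreted proteins of epithelium, fell with a median of -2.90 (-4.32 in MI-503). The metallothionein genes Mt1, Mt2 and Mt4 beside Bbs2 on chromosome 8 (94067952 to 94180327) rose, with a median of 1.82. The cystatin and stefin genes Csta1 and Stfa2l1 on chromosome 16 (36119946 to 36785158), beside Ildr1 and Slc15a2, fell with a median of -3.39.

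Whole chromosomes differed as well. On chromosome 8, 45.7% of 803 tested genes rose and 22% fell (median log2 fold change 0.24), whereas on chromosome 16 23.8% of 458 rose and 51.3% fell (median -0.27). On the X chromosome 16.7% of 600 rose and 47.0% fell (median -0.28), and on chromosome 5 23.4% of 980 rose and 46.1% fell (median -0.21). In MI-503, which shares no library with this comparison, the medians were 0.23 on chromosome 8, -0.23 on chromosome 16, -0.19 on the X chromosome and -0.16 on chromosome 5. The labels give no copy number or karyotype of either genotype, and the part of chromosome number in these values was not tested.

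**Figure D4:**
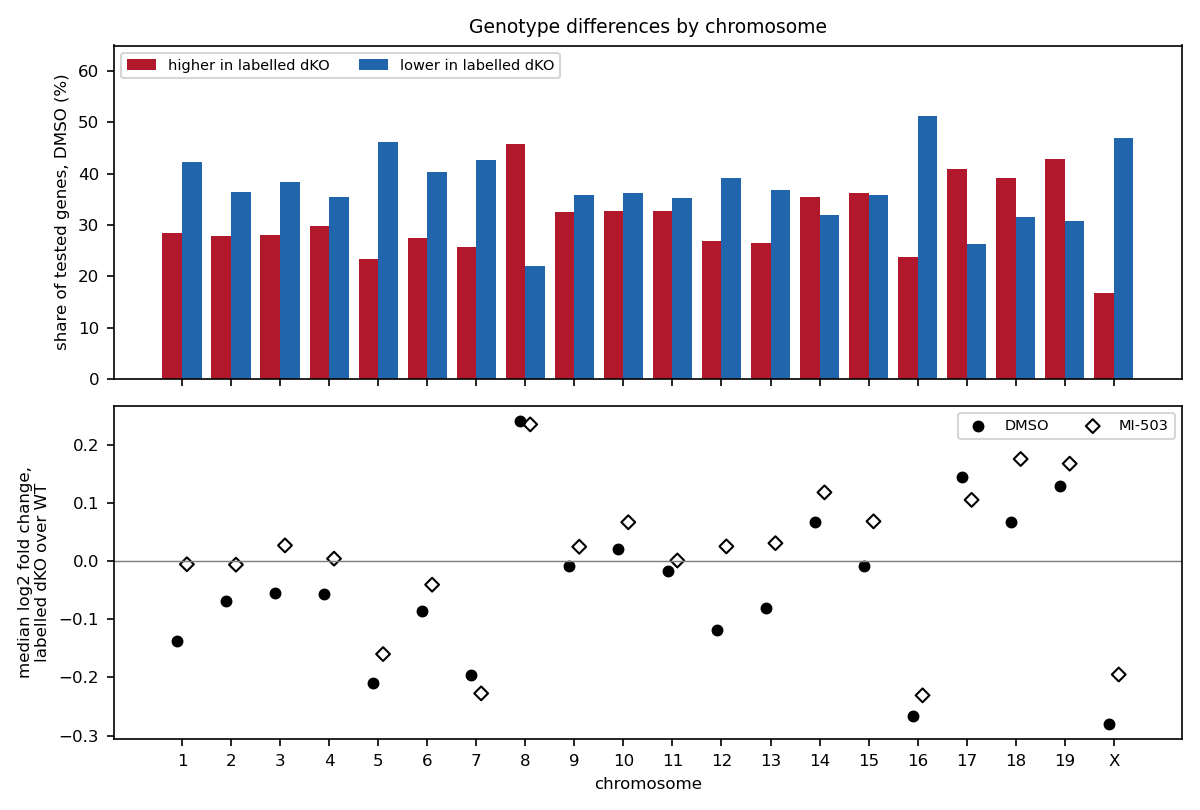
Top, share of tested genes that were higher (red) or lower (blue) in labelled dKO against WT in DMSO on each of the 20 chromosomes with at least 100 tested genes, which leaves out the Y chromosome and the mitochondrial genome; bottom, median log2 fold change per chromosome in DMSO (filled circles) and in MI-503 (open diamonds). Of those shown, chromosome 8 has the highest median in both media and chromosomes 5, 7, 16 and X have the 4 lowest medians in both.

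Genes of other chromatin regulators mostly moved by less than 2-fold. Of 19 tested genes of H3K4 methyltransferase complexes 10 rose, 5 fell and 4 did not pass (median 0.18). Rbbp5 (78.5 CPM in labelled dKO against 118 CPM in WT, log2 fold change -0.59), Kdm6a (86.8 CPM in labelled dKO against 122 CPM in WT, -0.50) and Wdr5 (120.0 CPM in labelled dKO against 151 CPM in WT, -0.33) fell, and the CpG-binding subunit Cxxc1 (39.5 CPM in labelled dKO against 23.1 CPM in WT, 0.78) and Hcfc1 (185 CPM in labelled dKO against 108 CPM in WT, 0.77) rose. Men1, the gene of menin, rose most among members with at least 5 CPM (30.8 CPM in labelled dKO against 15.7 CPM in WT, 0.97). Of 19 tested DNA methylation and TET genes 5 rose, 6 fell and 8 did not pass. Among these Zbtb4 rose most at that level (33.1 CPM in labelled dKO against 11.1 CPM in WT, 1.57). Of 15 genes of other lysine methyltransferases 6 rose, 1 fell and 8 did not pass, with the H3K9 methyltransferase gene Ehmt2 highest (146 CPM in labelled dKO against 68.4 CPM in WT, 1.09). Of 31 Polycomb genes 11 rose, 15 fell and 5 did not pass, with a median of -0.10 that turned above 0 with library size only. Dot1l, the H3K79 methyltransferase, rose by 0.51. Rnf2 (101 CPM in labelled dKO against 191 CPM in WT, -0.92) of PRC1 fell, Phc1 (40.8 CPM in labelled dKO against 21.3 CPM in WT, 0.94) and Jarid2 (26.97 CPM in labelled dKO against 14.6 CPM in WT, 0.89) rose, and the catalytic subunit gene Ezh2 rose by 0.36. Of 22 tested demethylase genes 5 rose, 12 fell and 5 did not pass (median -0.15, above 0 with library size only), with the H3K27 demethylase gene Kdm6b risen (96.7 CPM in labelled dKO against 54.3 CPM in WT, 0.83) and Kdm7a (83.2 CPM in labelled dKO against 155 CPM in WT, -0.90) and Kdm5b (133 CPM in labelled dKO against 240.0 CPM in WT, -0.85) fallen. Of 38 coactivator, BET and SWI/SNF genes 12 rose, 16 fell and 10 did not pass. Smarca4, the ATPase of SWI/SNF complexes, had 201 and 224 CPM in labelled dKO, against 113 and 104 CPM in WT (log2 fold change 0.96, SE 0.0691, adjusted p = 2.90e-08). The nuclear receptor coactivator gene Ncoa3 fell (56.5 CPM in labelled dKO against 91.8 CPM in WT, -0.70), as did the acetyltransferase gene Crebbp (-0.32), and its paralog Ep300 did not pass (-0.04).

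The genotype difference was set beside the same difference in MI-503. There, 4494 genes (26.6%) rose and 4828 (28.5%) fell. Of the 11070 genes called in DMSO, 6024 (54.4%) were called the same way in MI-503, 1316 (11.9%) the opposite way and 3730 not at all, and 64.6% of the MI-503 calls were the same way in DMSO. Across 16921 genes the log2 fold changes had a Pearson r of 0.735 and a Spearman coefficient of 0.560, as a description, since genes of the same 8 libraries are not independent replicates. The test of the difference between the 2 genotype differences passed for 7915 genes (46.8%). Of the 1773 genes that rose by at least 2-fold in DMSO 67.5% also rose in MI-503, and of the 2048 that fell by as much 72.7% also fell there. Of the 19 tight junction genes 15 fell in DMSO and 16 in MI-503, and the 2 genotype differences differed past the threshold for 11. The ER chaperone list had 18 fallen members in DMSO and 6 in MI-503.

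**Figure D5:**
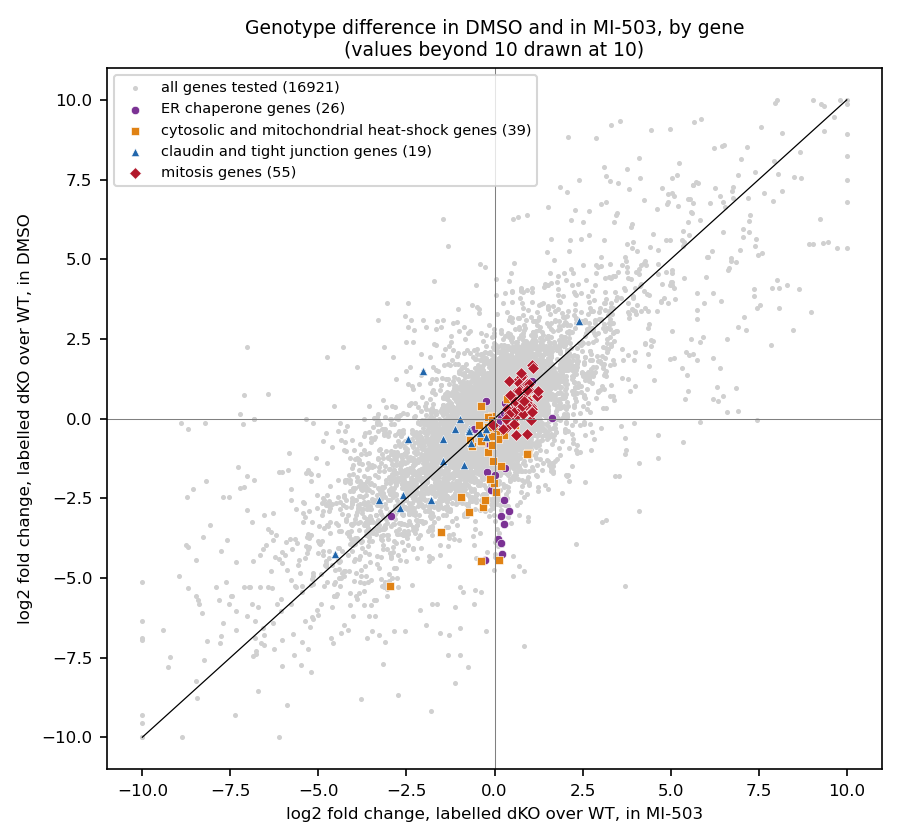
Log2 fold change of labelled dKO over WT in DMSO (vertical axis) and in MI-503 (horizontal axis) for all 16921 genes, with values beyond 10 drawn at 10 and the line of equal values in black. Mitosis genes (red diamonds) lie right of 0 apart from 1 member, tight junction genes (blue triangles) lie mostly lower left, and ER chaperone (purple circles) and heat-shock genes (orange squares) form a column below 0 near the vertical line.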

How the data were processed

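Gene-level read counts were taken as the authors deposited them, with no normalization. Per the submitters' processing notes, the tools of the series included SICER, MACS3, deepTools, Bowtie2 and STAR, and the builds were mm10 and GRCm38, while the counting program, its annotation and its use of strand were not given there, so reads of overlapping or antisense genes cannot be told apart. Of 53465 identifiers 53274 had a symbol, and 1 row without identifier was left out. All 8 libraries were fitted together with 1 mean per group in edgeR 4.0.16 (R 4.3.3; filterByExpr with a minimum count of 10, TMM scaling, quasi-likelihood test, 4 residual degrees of freedom), and p-values were adjusted by Benjamini and Hochberg over 16921 genes with a threshold of 0.05. The pipeline was run on simulated counts in which a small set of genes was changed, as many up as down. Such counts cannot test the scaling of data in which 65.4% of genes passed. DESeq2 1.42.0, other scalings and filters, a replicate block and the removal of each library were alternatives. The replicate numbers were not taken to pair the libraries.

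The comparison, its members and the gene lists were chosen with earlier results of these data known. The genes named are the largest changes with at least 20 or 200 CPM, the 2 most risen and 2 most fallen members of a list with at least 5 CPM, marker genes, the largest differences from MI-503 and the smallest changes. Other list members, all genes with few counts in 1 group and the promoter element were chosen after their values were seen. Positions and promoter windows come from RefSeq on GRCm38.p6, 1 window per gene, the most upstream listed.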

Additional observations from a re-analysis of the deposited data

Results flagged for a closer look

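The genotype difference was not the same in DMSO and in MI-503 for 7915 genes, by edgeR's test of the difference between the 2 genotype differences (46.8% of genes tested, 22% above 0 and 24.8% below 0).

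The genes with the largest such differences were flagged singly. Derl3, a factor of ER-associated degradation, had a difference of -7.18 on the log2 scale, with 0.819 and 0.547 CPM in labelled dKO and 212 and 218 CPM in WT in DMSO, and 0.252 and 0.276 CPM in labelled dKO and 0.600 and 0.551 CPM in WT in MI-503. The folding genes Hspa1b (-4.57), Creld2 (-4.46), Sdf2l1 (-4.17) and Hsph1 (-4.10) differed in the same direction, and for each of them the WT DMSO libraries were the highest of all 8.

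Above 0 stood Prl2c2 (5.27), Prl2c5 (4.25) and Prl2c3 (4.22), placental prolactin family genes whose near-identical copies can share reads, so that their separate values are uncertain. Prl2c2 had 7.10 and 6.88 CPM in labelled dKO and 0.260 and 0.215 CPM in WT in DMSO, and 42.5 and 42.6 CPM in labelled dKO and 58.6 and 54.03 CPM in WT in MI-503. The lipoxygenase gene Alox15 (4.37) had 0.182 and 0.168 CPM in labelled dKO and 0.635 and 0.479 CPM in WT in DMSO, and 0.386 and 0.243 CPM in labelled dKO and 20.6 and 21.4 CPM in WT in MI-503. The potassium channel gene Kcnq1 (4.10) turned direction, with 6.58 and 6.95 CPM in labelled dKO and 1.66 and 1.65 CPM in WT in DMSO, and 6.28 and 5.95 CPM in labelled dKO and 26.2 and 25.4 CPM in WT in MI-503.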

How the results depend on the processing

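Beside 5017 genes risen and 6053 fallen in DMSO, RLE size factors gave 5314 and 5711, no filter 5795 and 5347, a stricter filter 5112 and 4849, the 4 DMSO libraries alone 5425 and 5209, and DESeq2 4868 and 5336. Leaving out 1 library at a time gave 4362 to 5039 risen and 5501 to 6085 fallen in DMSO, 3596 to 4606 risen and 4060 to 4970 fallen in MI-503, and 6730 to 7614 genes that differed between the 2. The lone library of a group was then assumed to vary like the other groups. With a 2-fold minimum 1773 rose and 2048 fell. Runs of at least 3 neighbours in place of 4 numbered 111. CpG-poor windows were 14.7% of genes risen and 15.5% of genes fallen at any fold change, beside 25.6% and 33.5% at 2-fold. Of 343 named genes 20 gained or lost the call or turned. With library size only, Prdm2 turned to 0.047, Lamc1 to 0.11 and Kdm5d to 0.036, and the median of 16 of 80 lists turned under that scaling or RLE, 30 under any alternative. The median of the Hoxc genes had no value under the stricter filter. Depth limits genes with few reads, since 3 counts of a library stand for 0.0438 to 0.0516 CPM.

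With the replicate number as a block, 4905 genes rose and 5893 fell. The replicate differences of the labelled dKO DMSO group ran against those of the other groups (correlation -0.474 with WT DMSO over 10123 genes), and only some pairs of groups correlated above 0.1, so the numbers were not taken as a pairing. With the numbers of that group crossed, chosen after seeing the data, 5414 rose and 6468 fell.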

Other observations

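Several genes were almost without reads in 1 genotype. The cadherin gene Cdh10 had 255 counts in the labelled dKO libraries together and 0 in WT (at least 75.5-fold higher, taking 3 counts over both WT libraries), the immune checkpoint ligand gene Pdcd1lg2 had 411 and 0 (at least 122-fold), and the transcription factor genes Mef2c and Tal1 had 239 and 0 and 250 and 0 (at least 70.7-fold and 74.0-fold). The guanylate cyclase subunit gene Gucy1a2 had 681 counts in labelled dKO and 1 in WT, a ratio of 605 with a 95% counting interval of 108 to 23919. In the other direction, the ephrin receptor gene Ephb1 had 0 counts in labelled dKO and 464 in WT (at least 174-fold lower), and the adrenergic receptor gene Adrb1 had 0 and 331 (at least 124-fold lower). The sphingolipid hydroxylase gene Degs2 had 2 counts in labelled dKO and 446 in WT, a ratio of 251 in favour of WT with an interval of 69.1 to 2080. Intervals and limits cover counting error only.

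Families without 1 direction held large single changes. Of 359 tested zinc finger genes with a number in their symbol 135 rose, 112 fell and 112 did not pass, with Zfp334 (7.45 CPM in labelled dKO against 0.557 CPM in WT, log2 fold change 3.73) and Zfp185 (1.10 CPM in labelled dKO against 23.5 CPM in WT, -4.42) far apart. Of 75 tested glutathione transferase, aldehyde dehydrogenase and cytochrome P450 genes 32 rose and 31 fell in DMSO, whereas 11 rose and 46 fell in MI-503. Gsta1 rose (66.2 CPM in labelled dKO against 9.76 CPM in WT, 2.76) and Gsta3 fell (3.70 CPM in labelled dKO against 29.2 CPM in WT, -2.98), and these close copies can share reads. Of 84 tested ion channel genes 29 rose and 29 fell, with the calcium channel subunit genes Cacna2d1 (17.2 CPM in labelled dKO against 4.06 CPM in WT, 2.08) and Cacnb2 (0.532 CPM in labelled dKO against 9.91 CPM in WT, -4.20) in opposite directions. Among developmental transcription factors, Tbx15 rose (7.74 CPM in labelled dKO against 0.567 CPM in WT, 3.77), and Meis2 (77.8 CPM in labelled dKO against 186 CPM in WT, -1.26) fell. Control genes that many studies take as steady differed too, with 7 of 18 risen and 10 fallen, Eef1a1 (1.25) among the risen, and their median of -0.22 turned above 0 with library size only. Among the genes with the smallest differences at 200 CPM or more were Ly6e, Rplp0, Pdlim5 and Marcks, for which edgeR made no call.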
